A study of Mus musculus with 3 samples.

Results

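Histone H3 carrying both symmetric dimethylation of arginine 2 and trimethylation of lysine 4 (the combined mark, H3R2me2sK4me3) was compared with trimethylation of lysine 4 (H3K4me3) along the genome of mouse pro-B cells. The comparison used 2 of the 3 chromatin immunoprecipitation sequencing (ChIP-seq) samples of the study, 1 library per antibody. Both samples came from RAG2-/- Abelson-transformed pro-B cells with the strain given as C57BL/7, grown in RPMI1640 with 10% FBS, so the deletion and the viral transformation were common to both. The antibody against the combined mark was a custom one from the submitting laboratory, and that against H3K4me3 was commercial. The genome was divided into stretches of 1 kb, called bins, and a bin was used when it held at least 16 reads of the combined mark or at least 25 of H3K4me3. This chose 56328 bins, of 58280 that passed the limit of at least 1 of the 3 samples and of 2285014 that held any read. Merging used bins with a gap of up to 1 kb gave 18524 regions with a median width of 3 kb.

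H3K4me3 marks the nucleosomes around the start sites of active and poised genes, where it is bound by PHD fingers, including that of RAG2, which with RAG1 cuts antigen receptor genes for V(D)J recombination. Arginine 2 lies close to lysine 4 on the same histone tail, and its methylation changes which proteins the tail can bind. The asymmetric form, made by PRMT6, hinders H3K4 methylation, whereas the symmetric form, made by PRMT5 and PRMT7, is bound by WDR5, a subunit shared by H3K4 methyltransferase complexes. An antibody against the combined mark is meant to recognise tails that carry both modifications, and the antibodies' binding to tails with other modifications was not analysed here.

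There were 7128852 reads of the combined mark and 13898471 of H3K4me3, and used bins held 36.7% and 45.1% of them. Far from any used bin, background was 1.87 reads per 1 kb bin for the combined mark and 3.00 for H3K4me3, and levels below are multiples of this genome-wide background. Fragment length, read from the offset between strands, was 142 and 140 bp. Repeated reads, those at an already occupied position and strand, made up 2.64% and 6.20%. The samples stood apart at 1 region of chromosome 2, given with the region values below, that was strong in both custom-antibody libraries and weak in H3K4me3. Intervals are 95% counting intervals that speak of counting error alone, because copies made by PCR cannot be told from separate molecules. As each antibody had 1 library, no difference has a replicate check and no p-value was computed. Regions are given by mm9 position without gene names, and the cell type was not checked against marker genes, because no mm9 annotation was used here.

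Chromatin with the combined mark lay almost entirely within H3K4me3 chromatin, and where only H3K4me3 passed its limit the combined mark was low but above its surroundings. Of all bins with a read, 1.45% passed the limit for the combined mark (33137 bins) and 2.45% that for H3K4me3 (56039 bins). These limits chose the bins, so the counts describe the choice. Both limits were passed in 32848 bins, or 58.3% of those used, with a median of 48 reads of the combined mark and 128 of H3K4me3. Another 23191 bins passed for H3K4me3 only, with medians of 9 and 34 reads. The remaining 289 bins passed for the combined mark only, with medians of 17 and 20 reads.

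Local background was taken as the mean of bins outside the used ones in the 20 kb around each bin. Over all used bins its median was 3.87 reads for the combined mark and 8.25 for H3K4me3, and its mean was 2.10 and 2.86 times the genome-wide background. Where both passed, mean reads of the combined mark and of H3K4me3 were 18.5 and 19.1 times mean local background. In bins that passed for H3K4me3 only, the mean was 2.37 times it for the combined mark and 4.38 times for H3K4me3. The combined mark exceeded its local background in 21521 of 23097 such bins with a local value (93.2%) and reached 4 times that background in 2823 (12.2%). Only 19 of them had no read of the combined mark. In the 289 bins that passed for the combined mark only, H3K4me3 exceeded its own local background in 276 (95.5%), and its mean was 2.16 times that background. The same shares over all bins with a read were not computed, so how far these shares lie from them is not known. Local background leaves out every bin that passed either limit, which lowers it.

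Bins just inside and just outside the H3K4me3 limit had similar values, and those at the limit of the combined mark differed more. The 1626 bins with 15 reads of the combined mark had a median of 42 H3K4me3 reads, and the 1319 with 16 reads had 48. H3K4me3 passed its limit in 85.5% and 91.4% of them. The 1905 bins with 24 H3K4me3 reads and the 1815 with 25 both had a median of 7 reads of the combined mark. Of those at 24 and 25 reads, 2.41% and 2.31% passed for the combined mark.

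The combined mark rose more steeply than H3K4me3 across bins of rising H3K4me3. For this comparison the H3K4me3 reads were divided at random into 2 parts, of which one chose and ranked 55979 bins into 10 classes of equal size and the other gave the values. Net levels are levels less local background, and the net ratio is the net combined mark over net H3K4me3, each in multiples of its own background. On a scale of CPM (reads scaled to each sample's total) the ratio would be 1.22 times as large. In the lowest class net H3K4me3 was 5.22 and the net combined mark 2.06 times background. In the highest class they were 121 and 97.2. H3K4me3 thus differed 23.2-fold and the combined mark 47.2-fold between these classes.

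The net ratio was 0.395 in the lowest class (0.386 to 0.403) and 0.803 in the highest (0.801 to 0.806), a 2.04-fold rise (1.99 to 2.08). The rise was not even along the range. The 3 lowest classes had nearly equal ratios of 0.395, 0.393 and 0.402, over a net H3K4me3 of 5.22 to 8.67 times background. From there the ratio went up at each step, through 0.427, 0.448, 0.504, 0.568, 0.634 and 0.718. The slope of the log net combined mark on log net H3K4me3 was 1.12 over the 5 lower classes and 1.28 over the 5 upper ones. The combined mark passed its limit in 3.82% of the bins of the lowest class, 51.6% of the fifth and 100% of the highest.

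**Figure D1:**
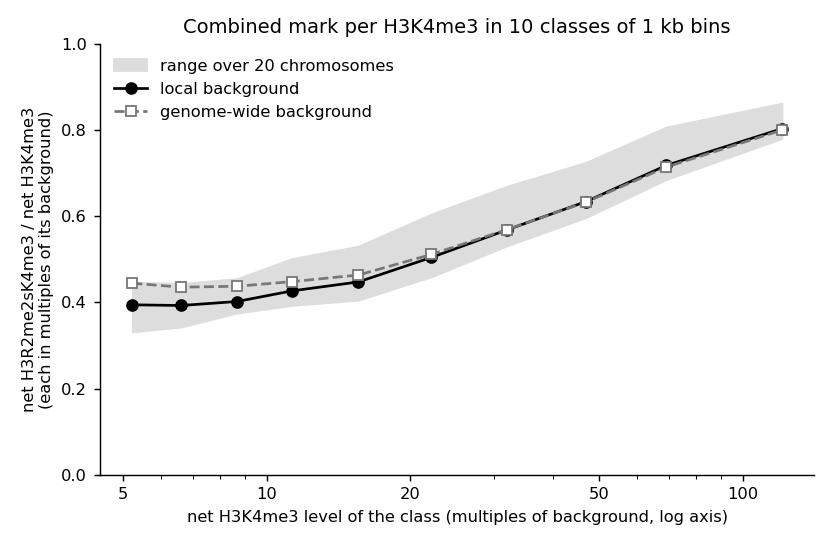
Net ratio of the combined mark to H3K4me3 in 10 classes of 1 kb bins, against net H3K4me3 (log axis). It is drawn with local and with genome-wide background, and the band is the range over 20 chromosomes. With local background the ratio is near 0.4 in the 3 lowest classes and reaches 0.803 in the highest.

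Local background hardly moved with the class, at 2.08 to 2.23 times genome-wide background for the combined mark and 2.82 to 3.04 for H3K4me3. With the genome-wide background in its place the ratio was higher in the lowest class, at 0.445, and the rise was 1.80-fold (1.77 to 1.83). Ranking bins by the combined mark gave ratios of 0.439 to 0.851, a rise of 1.94-fold (1.90 to 1.98). Repeated reads went from 1.74% to 5.82% of the combined mark and from 2.55% to 18.1% of H3K4me3 between the lowest and highest class. With 1 read kept per position and strand the rise was 2.18-fold.

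The rise was seen on each of 20 chromosomes (1 to 19 and X). Between the 3 lowest and the 3 highest classes together it ran from 1.75-fold on chromosome 17 through a median of 1.90-fold to 1.99-fold on chromosome 14. The pooled ratio was 0.645 on chromosome 13, 0.667 at the median and 0.714 on chromosome X. Chromosome X also had the lowest local background, 1.29 times the genome-wide value for the combined mark and 1.91 for H3K4me3, against 2.01 to 2.22 and 2.73 to 3.06 on the others. The part of that background in the higher ratio of X was not tested.

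The combined mark was concentrated closer to region centres than H3K4me3. The summit of a region was the middle of its highest 300 bp, placed with one random part of both samples' reads, and the other part gave the values for 18509 regions. Within 250 bp of the summit the net combined mark averaged 54.3 and H3K4me3 72.1 times background. At 1 to 2 kb they averaged 6.62 and 11.3, a fall of 8.21-fold for the combined mark and 6.38-fold for H3K4me3. The net ratio was 0.753 in the centre and 0.585 in the flanks, so that the centre-to-flank index, the first over the second, was 1.29 (1.28 to 1.30).

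In steps outward the net ratio was 0.758 at the summit, 0.730 at 200 bp, 0.655 at 500 bp, 0.627 at 1 kb, 0.501 at 2 kb and 0.453 at 3 kb. At 3 kb the net levels were still above 0, at 1.05 for the combined mark and 2.32 for H3K4me3. By chromosome the index was lowest on chromosome 2 at 1.24 and highest on X at 1.34, with a median of 1.30. With summits placed by H3K4me3 alone it was 1.26, and by the combined mark alone 1.32.

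**Figure D2:**
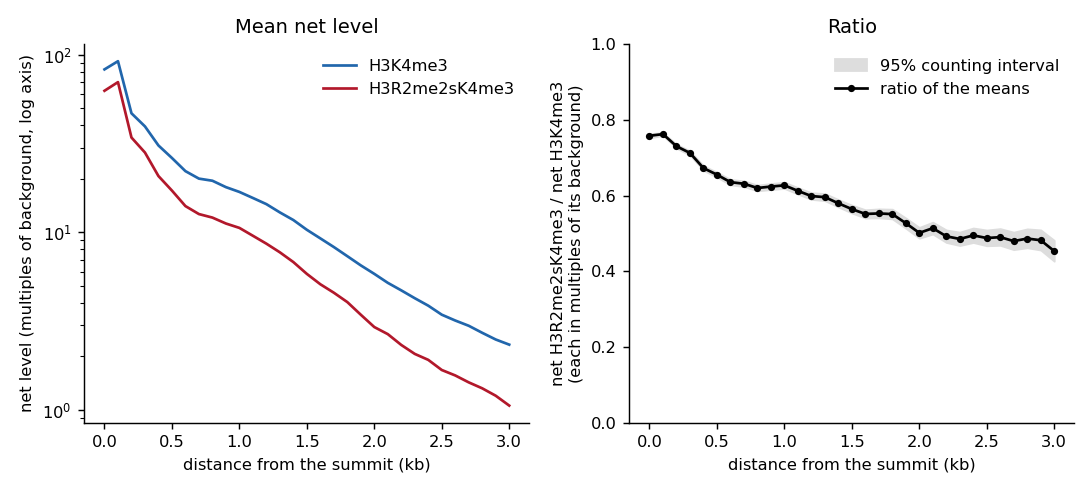
Net level of each mark and their net ratio against distance from the region summit in 100 bp bins, over 18509 regions, with 95% counting intervals on the ratio. The ratio falls from 0.758 at the summit to 0.453 at 3 kb.

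The index was above 1 in regions of every width, and its interval lay above 1 in each. It was 1.17 in regions of 1 kb (1.02 to 1.33), where flanks lie outside the region, 1.51 in those of 2 to 3 kb (1.49 to 1.54), 1.36 at 4 to 5 kb, 1.28 at 6 to 9 kb and 1.31 at 10 kb or more (1.28 to 1.33). In regions of 10 kb or more the net ratio was higher in both places, 0.879 in the centre and 0.674 in the flanks. Over 5 groups of regions of rising H3K4me3 the index was 1.17, 1.11, 1.31, 1.38 and 1.32.

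Centres also hold more H3K4me3 than flanks, and the net ratio rises with H3K4me3. Bins of 100 bp in centres and flanks were therefore compared at like H3K4me3 over 500 bp, with the level taken from one part of the reads and the ratio from the other. Averaged over levels, most of the difference between centre and flank was then gone, and the weighted index was 1.03 (1.02 to 1.04). The strongest class of centre bins, at 212 times background, lay above the levels of the flank bins and was left out. With summits placed by H3K4me3 alone it was 1.00 with an interval that included 1 (0.9945 to 1.009), and by the combined mark alone it was 1.07.

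That mean covers differences of opposite sign. Bins of all regions were pooled, so centre and flank bins of like H3K4me3 could come from regions of different strength. In the weakest of the 5 region groups net H3K4me3 averaged 10.4 times background in centres, with a ratio of 0.377. In the middle group it averaged 7.05 in flanks, with 0.482. In both groups the centre had the higher ratio, with indices of 1.17 and 1.31. Position at like H3K4me3 within regions of like strength was not tested. Among weakly marked bins so pooled, the ratio was lower in centres than in flanks. At a net H3K4me3 of 10.8 times background, the second of the level classes, it was 0.355 in centres against 0.430 read from the flank curve, an index of 0.825. Among strongly marked bins it was higher in centres, with 0.753 against 0.690 at 95.8 times background, the seventh class, an index of 1.09. Over 11 alternative settings the index ran from 0.745 to 0.875 in the second class and from 1.06 to 1.11 in the seventh.

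**Figure D3:**
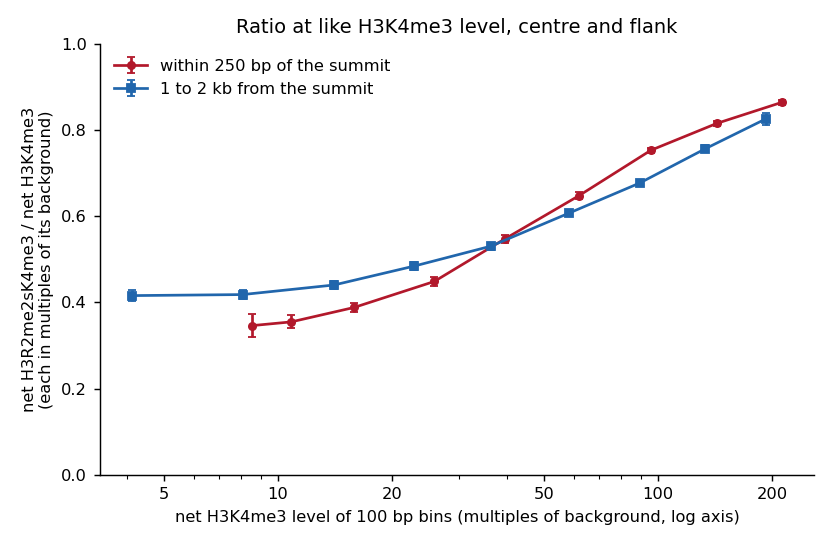
Net ratio in 100 bp bins of region centres and flanks, pooled over all regions, against net H3K4me3 in multiples of background (log axis). The centre curve lies below the flank curve at low H3K4me3 and above it at high H3K4me3, where it reaches 0.865 at 212 times background.

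The marks also leaned to the same side of the summit. The stronger side at 300 to 1500 bp was chosen by one part of the H3K4me3 reads in 17974 regions. In the other part it held 2.16 times the net combined mark and 2.02 times the net H3K4me3 of the weaker side, with net ratios of 0.656 and 0.611. With the side chosen by the combined mark, in 17169 regions, these were 2.25-fold and 1.86-fold. The combined mark was the more lopsided under either choice.

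Summits of the 2 marks lay about as close to each other as H3K4me3 summits did between random parts of their own reads. In 10063 regions with at least 50 reads of each mark and part, and with equal numbers of reads, 77.4% of the summits of the 2 marks lay no more than 200 bp apart (76.5 to 78.2, exact Clopper-Pearson interval). The same share between random parts of a single sample was 80.6% within the combined mark (79.8 to 81.4) and 77.8% within H3K4me3 (77.0 to 78.6). The median distance was 100 bp in all 3 pairings. Summits more than 1 kb apart made up 6.62% between marks, against 6.12% and 7.50% within them. Regions of 10 kb or more, 416 in number, had less reproducible summits, with 65.9% between marks, 70.9% within the combined mark and 67.5% within H3K4me3.

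**Figure D4:**
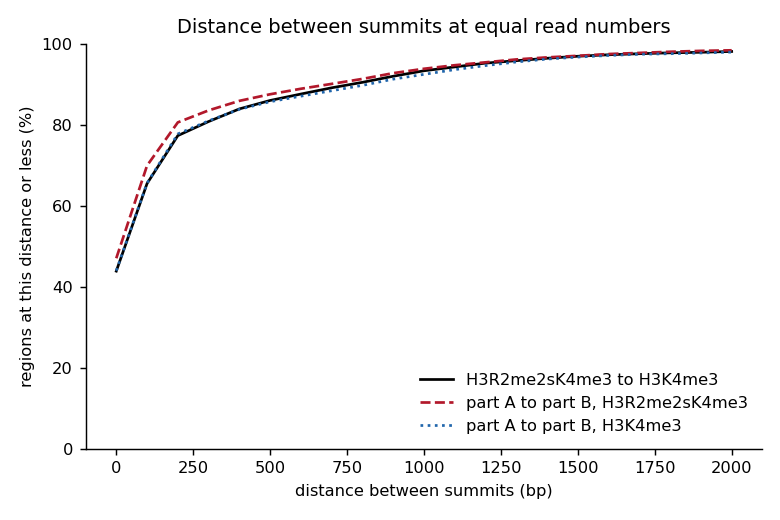
Cumulative share of 10063 regions against the distance between summits, for the combined mark against H3K4me3 and for random parts of each sample against each other. The curve between marks runs beside that within H3K4me3, at 77.4% and 77.8% by 200 bp.

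The share of regions with a called bin of the combined mark grew with width, and a wider region has more bins that can pass. It passed its limit in at least 1 bin of 21.7% of the 5252 regions of 1 kb (20.6 to 22.9), 78.2% of the 6920 regions of 2 to 3 kb, 96.5% of the 4211 of 4 to 5 kb, 98.1% of the 1725 of 6 to 9 kb and 99.5% of the 416 of 10 kb or more. The share of a region's bins that passed for the combined mark did not grow in the same way. Its median was 0% in regions of 1 kb, 66.7% at 2 to 3 kb, 75% at 4 to 5 kb, 66.7% at 6 to 9 kb and 60.0% at 10 kb or more. For H3K4me3 it was 100% at each width but the widest, where it was 92.3%. At like H3K4me3 the ratio still varied with width. In the fourth of 5 level classes it was 0.511 in regions of 1 kb, 0.607 in those of 2 to 3 kb, 0.627 at 4 to 5 kb, 0.610 at 6 to 9 kb and 0.537 at 10 kb or more. Bins of the 1 kb regions and of the widest ones thus had 88.2% and 89.4% of the ratio that bins of their H3K4me3 level had on the whole. In the highest class the widths differed little, from 0.754 to 0.783.

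H3R2me2s was measured in the study's other library with an antibody to arginine methylation alone. Bins with more of it had a higher net ratio at like H3K4me3, and the difference was larger where H3K4me3 was high. Within each of 5 H3K4me3 classes, bins were divided into 3 equal groups by H3R2me2s reads. The groups of the lowest class held means of 4.03, 7.49 and 12.1 H3R2me2s reads per bin. Those of the highest class held 32.7, 52.1 and 88.2. With few reads counting error sorts many bins, so the smaller difference at low H3K4me3 cannot be told from a limit of depth. In the lowest class the ratio was 0.387, 0.390 and 0.403 from least to most H3R2me2s. In the fourth it was 0.495, 0.571 and 0.716, and in the highest 0.637, 0.758 and 0.852. H3K4me3 also differed between these groups, at 32.7, 38.6 and 46.9 times background in the fourth class and, with the widest gap, 68.2, 86.7 and 131 in the highest. Read against the ratio at the level of each group, the values in the fourth class were 86.5%, 95.1% and 113% of it. They were 89.2%, 101% and 106% in the highest class and 98.2%, 98.9% and 102% in the lowest. The H3R2me2s and combined-mark antibodies were both custom ones, and the part of their shared source in this relation was not tested.

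**Figure D5:**
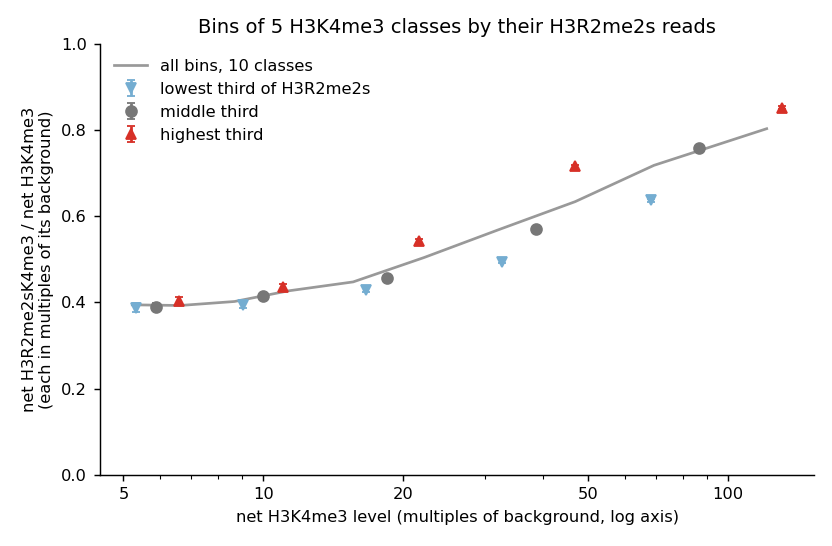
Net ratio of the combined mark to H3K4me3 in 3 groups of bins by H3R2me2s, within 5 classes of H3K4me3, with 95% counting intervals. The groups lie close together in the lowest class (0.387 to 0.403) and apart in the fourth (0.495 to 0.716).

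Region by region the ratio varied little on the high side and more on the low side. Among 12761 regions with at least 100 reads in both samples together the median net ratio was 0.634, with quartiles of 0.481 and 0.729. Only 5 regions (0.0392%) were over 2-fold above the median with an interval that left it out, and 936 (7.33%) were as far below. In 7878 regions with at least 100 reads of each mark log2 ratios had an SD of 0.25, against 0.13 from counting. It was 0.24 after the ratio of 1 kb bins at the same H3K4me3 level was taken off. This set leaves out regions with few reads of the combined mark, so its SD does not speak for weakly marked ones. Measured from the ratio of 1 kb bins at the same H3K4me3 level, 195 of all 12761 regions (1.53%) were over 2-fold low and 44 (0.345%) over 2-fold high. Whole regions did not follow the curve of bins, and these counts and the SD of 0.24 include that mismatch. In the eighth of 10 groups of regions, at 46.0 times background, the median ratio was 0.709, where bins at 46.9 had 0.634. In the lowest group, at 10.5 times, it was 0.363, where bins at 11.3 had 0.427.

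Low regions were chosen against a single median for all levels, and the ratio rises with H3K4me3, so weak regions were the more likely to be low. The low regions were mostly weak H3K4me3 regions. Their median net H3K4me3 was 14.4 times background against 33.8 in the other regions, and 678 of them (72.4%) were no wider than 3 kb. Over 10 groups of regions of rising H3K4me3 the median ratio went from 0.363 to 0.750, and the low regions made up 26.5% of the lowest group (338 regions), 24.6% of the next (314), 11.2% of the one after (143) and none of the highest. H3R2me2s reads were not used in this choice, although a ratio of them to H3K4me3 shares the H3K4me3 reads with it. This ratio was close in low and other regions of the same group. In the lowest group the net H3R2me2s over net H3K4me3 was 0.320 in low regions and 0.337 in the 935 others, while the combined mark gave 0.235 and 0.439. In the next it was 0.246 and 0.258, against 0.252 and 0.503, and in the one after 0.222 and 0.236, against 0.264 and 0.548. The share of regions called for H3R2me2s differed more, and not in 1 direction. It was 47.0% of low and 40.1% of other regions in the lowest group, 48.4% and 60.5% in the next and 68.5% and 82.1% in the one after. In the latter 2 groups low regions were also narrower, with a median of 2 kb against 3 kb. Another region within 10 kb was present for 53.3% and 54.7% in the lowest group, 37.6% and 39.2% in the next and 41.3% and 34.6% in the one after.

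The 5 highest regions, taken in order of the lower bound of their ratio, were led by one at chr2:101481001-101491000. It held 3328 reads of the combined mark and 432 of H3K4me3, a ratio of 14.8 (13.0 to 16.8), and also 3403 reads of H3R2me2s. Its neighbour at chr2:101461001-101472000 held 866 and 1116 reads, a ratio of 1.32 (1.19 to 1.47), with 409 of H3R2me2s. The 2 regions lie in the same stretch of chromosome 2, and whether the cells of the samples carried the same DNA there was not tested. The region chr1:24618001-24622000 held 153 and 89 reads, a ratio of 2.98 (2.24 to 3.96), with 296 of H3R2me2s. That at chr17:39980001-39986000 held 172 and 173 reads, a ratio of 1.69 (1.33 to 2.15), with 357 of H3R2me2s. In the first of these and in those on chromosomes 1 and 17, H3R2me2s reads outnumbered those of either other antibody. Whether repeated sequence or mapping had a part in these counts was not tested. Another region over 2-fold above the median, named after its values were seen, was chr5:110119001-110120000 with 48 and 61 reads and a ratio of 1.29 (0.869 to 1.93).

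The remaining one, chr12:114660001-114670000, differed from them in being strong in both marks, with 3006 reads of the combined mark and 4383 of H3K4me3. Its ratio was 1.11 (1.06 to 1.16), or 1.75 times the median. Its net H3K4me3 of 142 times background lay above that of the highest class of bins, which had a ratio of 0.803 at 121 times. It was also among the 5 regions with most H3K4me3 reads, of which the other 4 had ratios close to or below 0.803. The first of these, chr14:79914001-79925000, held 2372 and 4861 reads, a ratio of 0.783 (0.743 to 0.824). The region chr11:11586001-11597000 held 2049 and 4186 reads, a ratio of 0.788, and chr6:134866001-134885000 held 1915 and 4232, a ratio of 0.724. The widest region of all, the 54 kb at chr11:3051001-3105000, held 2092 and 4468 reads. Its ratio of 0.733 stood above the 0.520 of bins of its level, and it held 2189 reads of H3R2me2s. With no input library in the study, the part of repeated sequence or mapping in such a region was not tested.

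In the 5 lowest regions the combined mark stood at 1.48 to 2.79 times its local background, where H3K4me3 stood at 5.67 to 12.2 times its own. At chr14:83317001-83319000 there were 15 reads of the combined mark and 139 of H3K4me3, a ratio of 0.108 (0.0420 to 0.277). At chr11:117209001-117212000 there were 14 and 159 reads, a ratio of 0.0535 (0.0097 to 0.295). The region chr3:75808001-75810000 held 22 and 163 reads, a ratio of 0.151 (0.0761 to 0.300). That at chr14:58689001-58695000 held 47 and 306 reads, a ratio of 0.179 (0.109 to 0.294), and passed for H3K4me3 in all 6 bins and for the combined mark in 1. At chr9:64677001-64680000 the counts were 42 and 267, a ratio of 0.143 (0.0708 to 0.287), with a local H3K4me3 background of 15.7 reads per bin. Bins of their H3K4me3 levels had ratios of 0.445 to 0.524.

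The centre-to-flank index was also read in single regions, and the part of counting error in its spread was not computed. In 1163 regions with at least 50 reads of each mark in centre and flank the median index was 1.22, with quartiles of 1.03 and 1.43. It was above 1 in 908 (78.1%), with an interval wholly above 1 in 246 and wholly below 1 in 10. Counting error alone puts some of 1163 intervals wholly below 1, so the low regions named here may be among those. Regions were named in order of the interval bound nearest 1, not of the index. The first on the high side was chr2:84262001-84270000, where the centre held 138 reads of the combined mark and 208 of H3K4me3 and the flanks 135 and 450, an index of 2.25 (1.67 to 3.01). The others were chr18:55144001-55154000, at 2.35 (1.58 to 3.50), and chr5:65875001-65886000, at 2.35 (1.56 to 3.55). On the low side the first was chr1:178738001-178748000. Its centre held 67 and 166 reads and its flanks 71 and 87, an index of 0.446 (0.281 to 0.707). The others were chr1:135026001-135034000, at 0.570 (0.400 to 0.813), and chr17:34253001-34262000, at 0.525 (0.326 to 0.847).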

How the data were processed

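ChIP-seq reads of 3 samples were used, 2 of them compared. None of the 3 was an input library, and regions were not filtered for repeated sequence. Per the labels' protocols, nuclei were sonicated and libraries were amplified for 15 cycles and cut from a gel at 100 to 500 bp. The deposited files list mapped reads of 39 bases with a whole-number count per line, and per the submitters' processing notes the build was mm9. Not given in the sources used here were the aligner and how repeated reads were treated. Reads were moved 75 bp toward their 3′ end and counted in bins of 1 kb and 100 bp. Local background needed at least 5 bins outside the used ones, and 294 used bins and 3 regions without them were left out of net values. For genome-wide background, bins over 5 kb away from all used bins were averaged. Random parts used seed 1. Intervals for ratios were Poisson (delta method), and a net combined mark under 3 reads was set to 3. Regions were named as the 5 highest, the 5 lowest and the 5 with most H3K4me3 reads, and the 3 highest and 3 lowest indices. Alternatives changed the background, read shift, repeated reads, depth, limits, ranking, summits, parts and sex chromosomes. Scripts (Python 3.11.15, numpy 2.4.6, pandas 2.3.3, scipy 1.17.1) were tested on simulated data. The comparison, limits and lists were chosen with earlier results of these data known.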

Additional observations from a re-analysis of the deposited data

How the results depend on the processing

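None of 259 values over 13 alternative settings was counted as reversed. Many could hardly reverse, because shares and class ratios have no direction and 134 values were of regions named for extreme or strong values. Of 250 values with a counting interval around the reported value, 195 stayed within it, and the median ratio over regions, which has none, ran from 0.631 to 0.697. With the genome-wide background the rise was 1.80, the index 1.28 and the share of regions past 2-fold 5.11%, against 7.37%. With background more than 2 kb from used bins the index was 1.30. Moving reads 150 bp gave a matched-level index of 1.02. With 1 read per position and strand the rise was 2.18, the index 1.36, summits within 200 bp 75.7% and regions past 2-fold 8.61%. With H3K4me3 thinned to the depth of the combined mark the matched-level index was 1.02 and regions past 2-fold were 5.59%. Limits of 32 and 50 reads gave a rise of 1.86, a matched-level index of 1.04, 78.6% and 5.44%. Ranking by the combined mark gave a rise of 1.94. Summits from H3K4me3 alone gave an index of 1.26 and, at matched level, 1.00 with an interval that included 1. Those from the combined mark alone gave 1.32 and 1.07. The cause of these moves was not tested. Of 134 ratios of named regions to the median 125 stayed within their intervals. The other 9 came from regions with most H3K4me3 reads, 4 with 1 read per position and strand and 5 with limits of 32 and 50 reads. The region chr12:114660001-114670000 was on 2 of the lists, so its values, moved ones among them, are counted 2 times in these and the above totals. The indices at 2 level classes were followed across settings after their values were seen. No paired analysis was possible because there was only 1 library of each mark, and for the same reason no library was left out. Marker and gene lists were not run without an mm9 annotation. Depth limits the low-ratio regions, where the combined mark had as few as 14 reads.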
